A study of Rattus norvegicus with 12 samples.

Results

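The miR-29 family was followed in the hippocampus of adult male rats through both arms of its hairpins, miR-29a, miR-29b and miR-29c, each read as a 3p and a 5p product. Members were the listed mature miRNAs whose name carries the stem rno-miR-29a, rno-miR-29b or rno-miR-29c without a locus number, which gave 6 of 753 listed miRNAs. All 6 passed the filter on low reads, which dropped miRNAs read under 10 times in at least 10 libraries and retained 420 of 753. Small RNA was sequenced from the hippocampus of 12 rats. The study asked whether a high dose of ethanol changes hippocampal miRNAs, and the comparison was of 8 rats given 4 g/kg ethanol with 4 given vehicle. All were male Sprague Dawley rats, with no genetic change named, at postnatal days 70 to 80, bred in the laboratory, given a single intraperitoneal injection of ethanol or saline, and killed 3 h later. The labels name the right hippocampus, whereas the study's methods name the dorsal hippocampus, and each library is 1 rat. The study describes 8 rats a group. The other vehicle libraries were not analysed here.

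A miRNA hairpin is cut into a duplex, from which an Argonaute protein keeps one strand, the guide, while the other strand, the passenger, is mostly degraded. The guide finds messenger RNAs through its seed, the bases near its 5′ end, and represses them. In the miR-29 family the 3p product is the usual guide, and it is known for repressing collagens and other matrix proteins, the de novo DNA methyltransferases and, in mature neurons, pro-apoptotic BH3-only proteins.

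The sequences are from RefSeq, with coordinates on the rat assembly GRCr8. The deposited lists hold no coordinates and the submitters' processing notes name rn5, so positions are those of the reference and not of the files. The guide arms are shown first because they differ by few bases, with bases 2 to 8 from the 5′ end, the seed, in capitals.
miR-29a-3p: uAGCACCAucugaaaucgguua
miR-29b-3p: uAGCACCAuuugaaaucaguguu
miR-29c-3p: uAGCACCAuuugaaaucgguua
The passenger arms follow, marked the same way.
miR-29a-5p: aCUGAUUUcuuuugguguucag
miR-29b-5p: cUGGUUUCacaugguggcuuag
miR-29c-5p: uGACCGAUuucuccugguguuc

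The 3 guide arms shared the seed AGCACCA, which no other miRNA of the table with a RefSeq sequence carried. Counted from the 5′ end, miR-29c-3p differed from miR-29a-3p by 1 substitution, C10U. miR-29b-3p differed from miR-29a-3p by 4 substitutions over their first 22 bases, C10U, G18A, U21G and A22U. The 3 passenger arms had 3 different seeds, and none was shared with another miRNA of the table.

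The 4 hairpins lie as 2 pairs, and are shown with their annotated arms in capitals because the position of the 5p arm differs between the miR-29b copies.
Mir29a: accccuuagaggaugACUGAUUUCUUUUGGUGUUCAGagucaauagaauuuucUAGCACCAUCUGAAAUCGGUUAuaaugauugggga
Mir29b1: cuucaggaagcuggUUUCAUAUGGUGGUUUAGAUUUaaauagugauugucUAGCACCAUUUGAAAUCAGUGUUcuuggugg
Mir29b2: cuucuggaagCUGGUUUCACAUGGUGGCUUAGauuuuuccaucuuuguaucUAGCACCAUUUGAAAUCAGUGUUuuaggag
Mir29c: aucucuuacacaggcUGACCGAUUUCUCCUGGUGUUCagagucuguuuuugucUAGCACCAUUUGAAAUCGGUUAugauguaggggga
Mir29a (chr4:60617955-60618042) and Mir29b1 (chr4:60618334-60618414) are on the minus strand, 291 bases apart. Mir29b2 (chr13:109098831-109098911) and Mir29c (chr13:109099359-109099446) are on the plus strand, 447 bases apart, within the span of a gene annotated as a long noncoding RNA, LOC102550527. No other gene but short miRNA genes of the opposite strand is annotated across the first pair.

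miR-29b-3p has the same sequence in Mir29b1 and Mir29b2, so its reads cannot be assigned to a hairpin. Its partner miR-29b-5p belongs to Mir29b2 alone. The annotated 5p arm of Mir29b1, miR-29b-1-5p, starts 4 bases further into its hairpin and is no member by the naming rule. It was named after its values were seen: it had 0 or 1 read in each library, 6 reads in 12 libraries, so almost no reads were listed for the 5p arm annotated in Mir29b1.

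Annotated miRNAs of the opposite strand overlap these hairpins. miR-3556a, across Mir29a, and miR-3556b, across Mir29c, were listed at 0 in all 12 libraries. miR-3587, which is antisense to miR-29b-3p, had between 3.60 and 8.57 estimated reads in 5 libraries (vehicle rat 9 and ethanol rats 8, 15, 16 and 24) and less than 1 in the other 7. How the counting treated strand is not given in the sources used here, and in those libraries miR-3587 made up at most 4.91% of the sum of the 2 miRNAs.

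The files hold estimated counts. Library totals ranged from 1960702 to 4917929 reads, with a median of 3742254 in vehicle and 2751738 in ethanol, and the 6 miR-29 arms together took between 0.486% and 0.693% of a library's counts. Values below are CPM, the share of a library's reads per 1000000, with totals scaled by edgeR's TMM factors, and log2 differences are ethanol minus vehicle from edgeR's quasi-likelihood test. Adjusted p is Benjamini-Hochberg over all 420 retained miRNAs. The floor of detection, taken as 3 reads, was between 0.610 and 1.53 CPM, and it covers counting error only. All p-values take the rat as the unit, and those of ethanol against vehicle set the difference against the spread between these rats. In whole tissue, fewer cells of a type and less RNA per cell cannot be told apart.

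The guide arms miR-29a-3p and miR-29c-3p were abundant and miR-29b-3p was not. Over 12 libraries miR-29a-3p was read at 3017 ± 274 CPM (SD) and miR-29c-3p at 2846 ± 258 CPM, at ranks 49 and 51 of the 420 retained miRNAs. miR-29b-3p, with the same seed and 2 gene copies, was read at 73.7 ± 9.12 CPM, at rank 201. Among the passenger arms, miR-29c-5p was read at 35.3 ± 5.01 CPM, miR-29b-5p at 9.06 ± 2.07 CPM and miR-29a-5p at 8.75 ± 2.36 CPM. The mature lengths were 22 or 23 bases, so CPM was compared between members without scaling for length. How evenly the library preparation captured different sequences was not measured. Folds between members and arm ratios are therefore of reads, and not of molecules in the tissue.

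Most neighbours in this order were separated in every rat. The 5 pairs of neighbours were compared, with p-values that are not adjusted. The order and so the pairs were taken from mean CPM in these same libraries. The p-values therefore describe only how far the rats agreed on the direction of each step. The exact p is at its smallest whenever all 12 libraries agree, whatever their spread. miR-29c-3p exceeded miR-29b-3p by 38.4-fold in 12 of 12 libraries (two-sided exact sign-flip permutation test, p = 0.000488, the smallest this design allows). The guide arm miR-29b-3p exceeded the passenger arm miR-29c-5p by 2.07-fold, again in 12 of 12 libraries with the same exact p, and miR-29c-5p exceeded miR-29b-5p by 3.75-fold in 12 of 12. The least read guide arm was thus nearer to the most read passenger arm than to the other guide arms.

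At the ends of the order the steps were small. miR-29a-3p exceeded miR-29c-3p by 1.06-fold, or 0.08 ± 0.10 (SD) on the log2 scale, in 10 of 12 libraries (exact permutation p = 0.0195). The ratio of miR-29c-3p to miR-29a-3p lay between 0.884 and 1.10 in every library, and it was above 1 in 2 of them, vehicle rat 10 at 1.10 and ethanol rat 4 at 1.05. miR-29b-5p and miR-29a-5p did not differ beyond their spread, with a log2 difference of 0.06 ± 0.50 and miR-29b-5p higher in 5 of 12 libraries (exact permutation p = 0.673).

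Ethanol had no significant effect on any miR-29 arm after adjustment. At an adjusted p under 0.05, 0 of 6 members and 0% of all 420 miRNAs passed. At an unadjusted p under 0.05, 1 of 6 members passed, rno-miR-29b-5p, beside 4.05% of all 420, and it was lower after ethanol, as 2.38% of all 420 were at that threshold. The groups did not overlap in CPM for 0 of 6 members and 0.238% of all miRNAs. After ethanol 5 of 6 members were lower, beside 54% of all miRNAs. The median log2 difference of the 6 was -0.14, beside -0.02 over all 420.

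**Figure D1:**
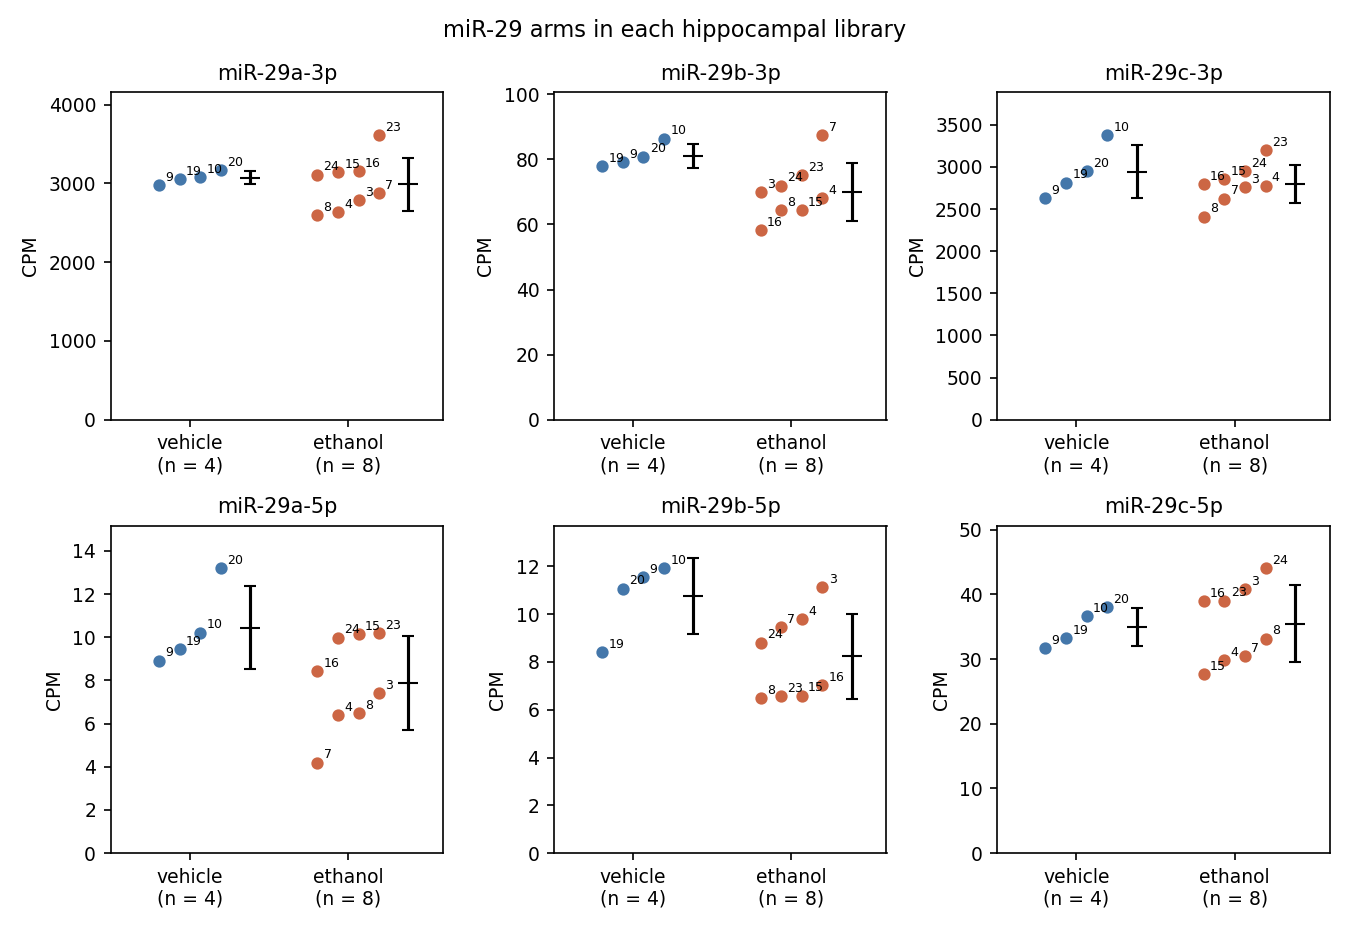
CPM of each miR-29 arm in the 4 vehicle and 8 ethanol libraries, with one panel per arm, rat numbers beside the points and the group mean ± SD at the right of each group. The groups overlap in all 6 panels, and 7 of 8 ethanol rats lie below every vehicle rat for miR-29b-3p.

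Of the guide arms, rno-miR-29a-3p was read at 2973, 3085, 3054 and 3171 CPM in vehicle rats 9, 10, 19 and 20. In the ethanol rats it ranged from 2595 to 3618 CPM with a median of 2993. The vehicle rats sat within a narrow band and the ethanol rats on both sides of it, 4 below and 1 above every vehicle rat. The means were 3071 ± 81.8 (SD, n = 4) and 2990 ± 336 CPM (n = 8), and the log2 difference was -0.04 (SE 0.08, 95% interval -0.22 to 0.14, edgeR adjusted p = 0.972).

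rno-miR-29c-3p was read at 2635, 3382, 2814 and 2949 CPM in vehicle rats 9, 10, 19 and 20. Its ethanol values ranged from 2411 to 3198 CPM with a median of 2787. Vehicle rat 10 was the highest of all 12 libraries, and 2 ethanol rats were below every vehicle rat. The means were 2945 ± 319 (SD, n = 4) and 2797 ± 229 CPM (n = 8), with a log2 difference of -0.07 (SE 0.08, 95% interval -0.25 to 0.10, edgeR adjusted p = 0.971). The intervals of both abundant guide arms left room for a fall of at most 0.25 on the log2 scale.

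rno-miR-29b-3p was read at 79.3, 86.4, 78.0 and 80.9 CPM in vehicle rats 9, 10, 19 and 20. After ethanol it ranged from 58.3 to 87.6 CPM with a median of 69.0. Below every vehicle rat were 7 of 8 ethanol rats, and the other, rat 7, was above every one. The means were 81.1 ± 3.70 (SD, n = 4) and 69.98 ± 8.80 CPM (n = 8). The log2 difference was -0.21 (SE 0.10, 95% interval -0.43 to 0.01), which failed the correction (edgeR adjusted p = 0.971, unadjusted 0.0561).

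By a two-sided exact permutation test, whose smallest possible p over the 495 ways to divide 12 rats into 4 and 8 is 0.00202, miR-29b-3p gave an unadjusted p of 0.0404 and an adjusted p of 0.960. That test called 2.62% of all miRNAs at the unadjusted threshold. Summing miR-29b-3p with the antisense miR-3587 gave a log2 difference of -0.19 (edgeR unadjusted p = 0.0624, adjusted 0.971). As a share of the 3 guide arms, miR-29b-3p made up 1.33 ± 0.0415% in vehicle and 1.20 ± 0.180% in ethanol rats, while miR-29a-3p made up 50.5% and 51.0% and miR-29c-3p 48.2% and 47.8%. The summed guide arms were at 6097 ± 370 CPM in vehicle and 5858 ± 547 CPM in ethanol, and the groups overlapped.

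Of the passenger arms, rno-miR-29b-5p was the member with the lowest p and is, with miR-29a-5p, 1 of 2 members that the study singled out from rats of this experiment, so neither is an independent choice. It was read at 11.6, 11.9, 8.41 and 11.1 CPM in vehicle rats 9, 10, 19 and 20. In the ethanol rats it ranged from 6.47 to 11.1 CPM with a median of 7.91. Vehicle rat 19 lay among the ethanol rats, and 4 of 8 ethanol rats were below every vehicle rat. The means were 10.7 ± 1.59 (SD, n = 4) and 8.23 ± 1.80 CPM (n = 8). The log2 difference was -0.39 (SE 0.17, 95% interval -0.76 to -0.01, edgeR unadjusted p = 0.0450, adjusted 0.971), at rank 13 of the 420 by p, and the exact permutation test gave 0.0566. The unadjusted call was also lost by DESeq2 (unadjusted p = 0.103, adjusted 0.990) and by limma on log2 CPM (unadjusted p = 0.0510, adjusted 0.948). In edgeR it was lost without the filter (unadjusted p = 0.0554, adjusted 0.854) and with a stricter filter (unadjusted p = 0.0580, adjusted 0.921). Leaving out any 1 of 7 libraries, vehicle rats 9, 10 and 20 and ethanol rats 8, 15, 16 and 23, lost it as well (edgeR unadjusted p = 0.0825 to 0.124, lowest adjusted 0.816). These values rested on 16 to 52 reads a library.

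rno-miR-29a-5p was read at 8.92, 10.2, 9.46 and 13.2 CPM in vehicle rats 9, 10, 19 and 20. After ethanol the range was 4.20 to 10.2 CPM with a median of 7.92. Vehicle rat 20 was the highest and ethanol rat 7, with 8 reads, the lowest, and 5 of 8 ethanol rats were below every vehicle rat. The means were 10.4 ± 1.91 (SD, n = 4) and 7.90 ± 2.18 CPM (n = 8), with a log2 difference of -0.38 (SE 0.21, 95% interval -0.82 to 0.07, edgeR adjusted p = 0.971, exact permutation p = 0.0929). It had the widest range of the members, with the highest library at 3.14 times the lowest.

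rno-miR-29c-5p, the most read passenger arm, was at 31.7, 36.6, 33.2 and 38.1 CPM in vehicle rats 9, 10, 19 and 20. Across the ethanol rats the range was 27.7 to 44.0 CPM with a median of 36.1. The ethanol rats lay on both sides of the vehicle rats, 3 below and 4 above every one. The means were 34.9 ± 2.95 (SD, n = 4) and 35.5 ± 5.97 CPM (n = 8), with a log2 difference of 0.03 (SE 0.13, 95% interval -0.26 to 0.31, edgeR adjusted p = 0.997). Of the reads of the 3 passenger arms, miR-29c-5p made up 62.3 ± 1.94% in vehicle rats and 68.6 ± 3.34% in ethanol rats, with ranges of 60.8% to 65.0% and 62.3% to 71.9% that overlapped. The shares are given without a test.

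**Figure D2:**
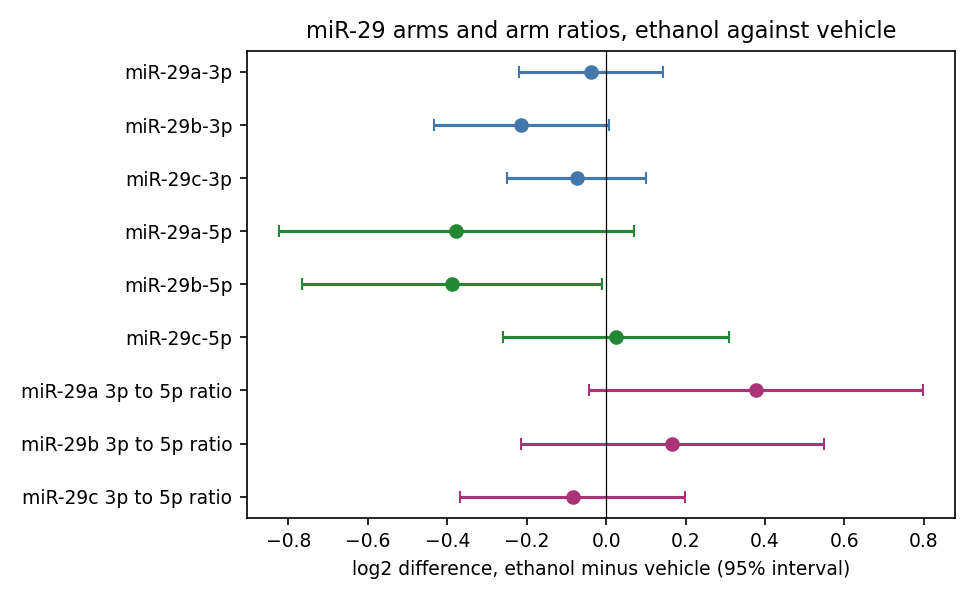
Log2 difference, ethanol minus vehicle, of each miR-29 arm and of each 3p to 5p ratio (points), with 95% intervals (bars) from edgeR for the arms and limma for the ratios. Of the 9 intervals, only that of miR-29b-5p, -0.76 to -0.01, leaves out 0, without adjustment.

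The reads behind the arms set how closely each could be measured. For miR-29a-3p and miR-29c-3p, with 5006 to 14902 reads a library, the SD of log2 CPM within groups was 0.13 for both, at 8.54 and 8.02 times what counting alone gives. For miR-29b-5p the SD was 0.27, at 0.92 times the counting SD of 0.29, and for miR-29a-5p it was 0.36, at 1.16 times the counting SD of 0.31. Log2 CPM carries a prior count of 2, which narrows the spread of low counts. From the reads themselves, chi-square per degree of freedom within groups was 1.71 for miR-29a-5p and 1.26 for miR-29b-5p. Counting alone gives about 1. Counting error was thus large beside the spread of these 2 passenger arms. For miR-29a-5p the counting intervals of vehicle rat 20 and ethanol rat 7, which are in different groups, were apart. Within each group the counting intervals of the highest and lowest rats overlapped. miR-29b-3p and miR-29c-5p lay between, at 1.49 and 1.45 times the counting SD.

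The 3p arm held more reads than the 5p arm in all 12 libraries for each hairpin, as guide and passenger imply, but the 3 hairpins differed in degree. For miR-29a there were 240 to 685 3p reads for each 5p read, with a median of 344.5. For miR-29c there were 67.1 to 103, with a median of 82.5, and for miR-29b 6.29 to 11.5, with a median of 8.23. The ranges of the 3 hairpins did not overlap. The 5p arm thus made up between 0.146% and 0.414% of the miR-29a reads, 0.962% to 1.47% of the miR-29c reads, and 8.03% to 13.7% of the miR-29b reads. For miR-29b the 3p reads can come from either gene copy, whereas the counted 5p arm is that annotated in Mir29b2.

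**Figure D3:**
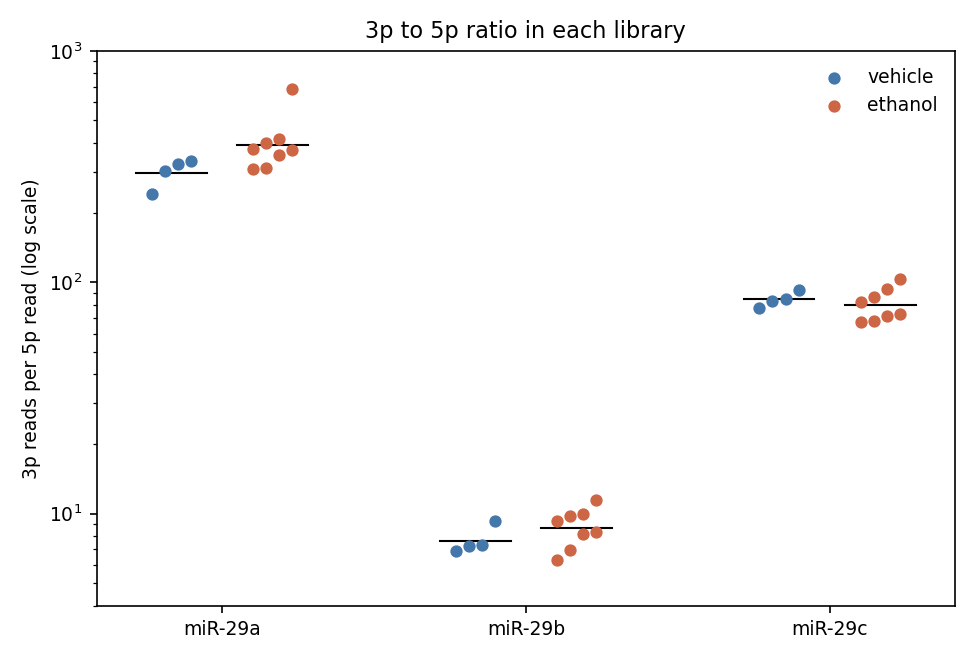
Number of 3p reads for each 5p read in each library (points, log axis) for the 3 miR-29 hairpins, by group, with the geometric mean of each group as a line. The hairpins occupy separate ranges, 240 to 685 for miR-29a, 67.1 to 103 for miR-29c and 6.29 to 11.5 for miR-29b, while vehicle and ethanol overlap in each.

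Both arms were retained for 122 hairpins of the table, of which 59 had more 3p than 5p reads. Ordered by the 3p to 5p ratio from the highest, miR-29a was at rank 7, miR-29c at rank 14 and miR-29b at rank 35. The median size of the log2 ratio, whichever arm led, was 3.98. The log2 ratios of miR-29a and miR-29c were larger than this, with group means of 8.19 in vehicle and 8.57 in ethanol for miR-29a and of 6.39 and 6.31 for miR-29c, and that of miR-29b was smaller, at 2.91 and 3.08.

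**Figure D4:**
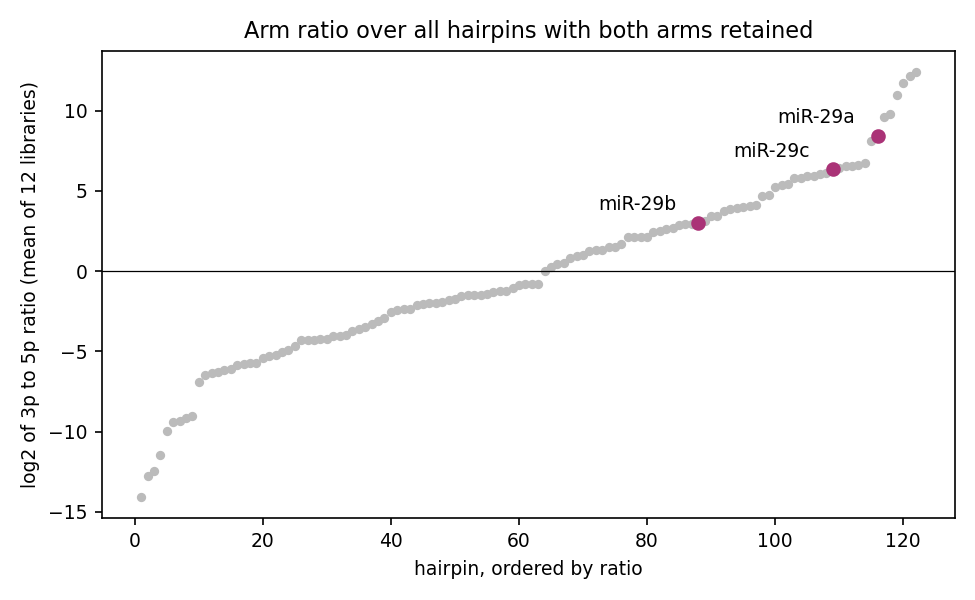
Mean log2 ratio of 3p to 5p reads over 12 libraries for 122 hairpins with both arms retained, in rising order, with the miR-29 hairpins marked. miR-29a stands at rank 7 from the top, miR-29c at rank 14 and miR-29b at rank 35.

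There was no significant effect of ethanol on the arm ratio of any miR-29 hairpin. The test was limma on the log2 ratio with 0.5 added to both arms, adjusted over the 122 hairpins. At an adjusted p under 0.05, 0% of the hairpins passed, and 1.64% did at an unadjusted p under 0.05, none of them of the miR-29 family.

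The miR-29a ratio was 333, 302, 323 and 240 in vehicle rats 9, 10, 19 and 20. Its ethanol values ran from 309 to 685 with a median of 375. The groups overlapped, and ethanol rat 7 was far above the rest, the next being ethanol rat 4 at 414. The log2 difference was 0.38 (SE 0.20, 95% interval -0.04 to 0.80, limma adjusted p = 0.960, unadjusted 0.0746, exact permutation p = 0.0566), the third smallest p of the 122.

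The miR-29b ratio was 6.86, 7.25, 9.28 and 7.31 in vehicle rats 9, 10, 19 and 20. In the ethanol rats it ranged from 6.29 to 11.5 with a median of 8.79. Vehicle rat 19 lay in the middle of the ethanol rats and the other 3 vehicle rats toward their lower end. The log2 difference was 0.17 (SE 0.18, 95% interval -0.21 to 0.55, limma adjusted p = 0.960, exact permutation p = 0.311).

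The miR-29c ratio was 83.1, 92.4, 84.7 and 77.4 in vehicle rats 9, 10, 19 and 20. After ethanol the range was 67.1 to 103 with a median of 77.3, on both sides of the vehicle rats. The log2 difference was -0.08 (SE 0.13, 95% interval -0.37 to 0.20, limma adjusted p = 0.967, exact permutation p = 0.487).

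Whether the guide and passenger arms of a hairpin move together from rat to rat was examined on log2 CPM after the mean of each group was taken away, over 12 libraries. The arms share a library and its scaling, so the same correlation was taken for all 122 hairpins, where the median r was 0.36, the quartiles were -0.04 and 0.66, and 90 were above 0. By r, an adjusted permutation p under 0.05 was reached by 26 of 122, or 21.3%.

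For miR-29a the arms moved in the same direction, with Pearson's r = 0.67 (permutation p = 0.0425, adjusted over 122 hairpins 0.127) and Spearman's rho = 0.87 (permutation p = 0.00449, adjusted 0.0322). The rank measure passed the adjusted threshold and the linear one did not. The share given above for all hairpins is by r. By rho other hairpins passed as well, with a lowest adjusted permutation p of 0.00122, so a pass was not particular to miR-29a. Ethanol rat 7 was low in miR-29a-5p without being the lowest in miR-29a-3p, and without it r was 0.84 (adjusted permutation p = 0.00889). Without any 1 of 9 other libraries the unadjusted call of r was lost (permutation p = 0.0549 to 0.0872), and it was kept only without vehicle rat 10 or 19 or ethanol rat 7. Without the 2 libraries farthest from the median of miR-29a-3p, r was 0.65 (permutation p = 0.0923), so its unadjusted call did not hold there. Within the 8 ethanol libraries alone r was 0.66 (permutation p = 0.0713). The 4 vehicle libraries are too few for a value of their own. The r of miR-29a was higher than that of 76.2% of the 122 hairpins.

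For miR-29b, r was 0.44 (permutation p = 0.216, adjusted 0.413) and rho was 0.50 (permutation p = 0.121, adjusted 0.313). For miR-29c, r was 0.43 (permutation p = 0.159, adjusted 0.334) and rho was 0.39 (permutation p = 0.202, adjusted 0.439). Neither was distinguished from 0, and both lay near the median of all hairpins. Without the 2 farthest libraries r was 0.33 for miR-29b and 0.49 for miR-29c. Counting error was large beside the spread of miR-29b-5p, as of miR-29a-5p, and its part in these correlations was not tested.

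**Figure D5:**
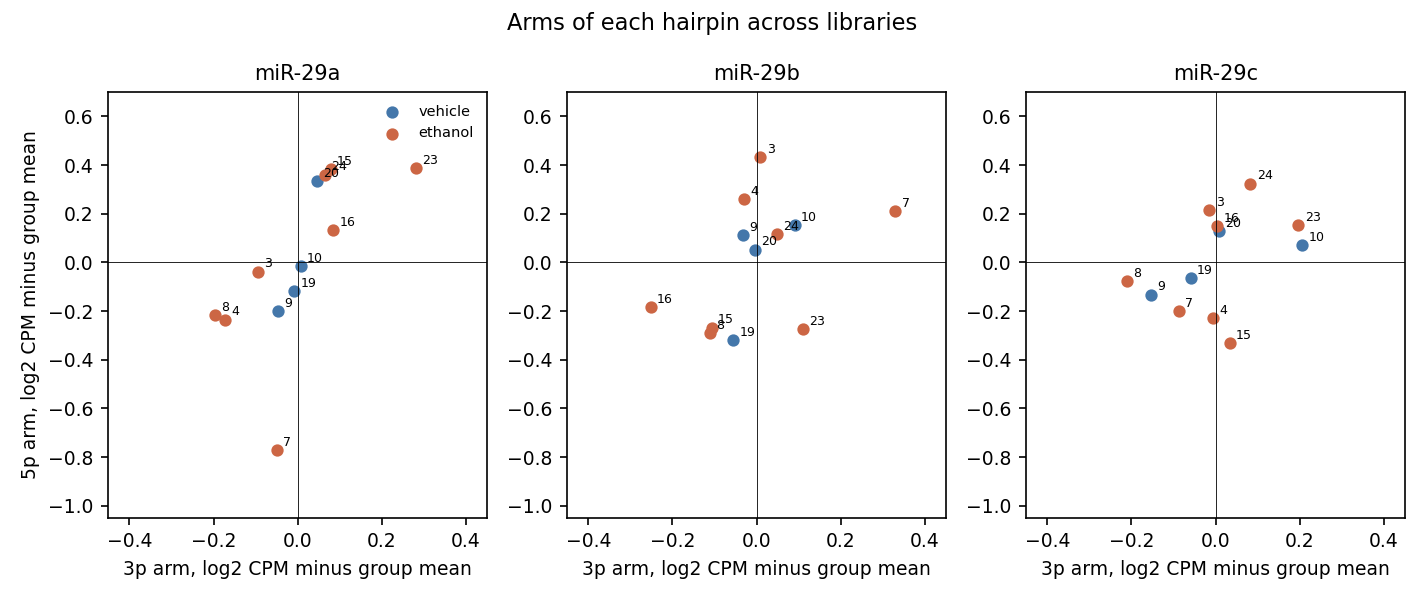
Log2 CPM of the 5p arm (vertical) against the 3p arm (horizontal) of each miR-29 hairpin, each minus its group mean, for 4 vehicle and 8 ethanol rats with rat numbers. For miR-29a r was 0.67, with ethanol rat 7 lowest on the vertical axis, and for miR-29b and miR-29c r was 0.44 and 0.43.

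Between members of different hairpins, 12 pairs remain of the 15 pairs of members, and they are given as descriptions over 12 libraries. miR-29a-3p and miR-29c-3p, which come from different chromosomes, rose and fell together, with r = 0.69 and rho = 0.73. miR-29c-3p varied with miR-29a-5p (r = 0.58, rho = 0.78) more closely than with its own passenger arm. miR-29b-3p and miR-29a-3p, whose genes lie next to each other in Mir29b1 and Mir29a, had r = 0.09 and rho = 0.06. miR-29b-3p and miR-29c-3p, neighbours through Mir29b2 and Mir29c, had r = 0.22 and rho = 0.38. The 5p arms of that second pair, miR-29b-5p and miR-29c-5p, had r = 0.17 and rho = 0.05. The most negative r was that of miR-29b-3p with miR-29a-5p, at -0.42, but its rho was 0.05, so the measures differed in sign. miR-29b-3p with miR-29c-5p had r = -0.01 and rho = 0.27. Both measures were negative for miR-29b-5p with miR-29a-3p (r = -0.40, rho = -0.36) and with miR-29a-5p (r = -0.35, rho = -0.33). All 3 guide arms had fractional counts in all 12 libraries. miR-29c-3p differs from miR-29a-3p by 1 base and from miR-29b-3p by 3 over 22 bases. Some reads may therefore have been shared out between similar miRNAs, and the values of the guide arms are not fully separate.

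The 2 other retained miRNAs most like each member, by r of the same deviations over 12 libraries among 353 candidates with at least 10 reads in every library, are given as descriptions. miR-29a-3p was most like miR-132-3p (r = 0.91, rho = 0.91), an activity-dependent miRNA of neurons, and miR-128-3p (r = 0.85, rho = 0.80), a miRNA enriched in neurons. miR-29c-3p was most like miR-195-5p (r = 0.96, rho = 0.83), of the miR-15 seed family, and miR-345-5p (r = 0.86, rho = 0.60). For miR-29b-3p the closest were miR-450a-5p (r = 0.69, rho = 0.57) and miR-497-5p (r = 0.68, rho = 0.69), which shares a cluster and seed with miR-195-5p. For the passenger arms they were miR-374-5p (r = 0.83, rho = 0.80) and miR-138-1-3p (r = 0.74, rho = 0.71) for miR-29a-5p. They were miR-135b-5p (r = 0.85, rho = 0.78) and miR-376b-3p (r = 0.84, rho = 0.83) for miR-29b-5p, and miR-30d-3p (r = 0.76, rho = 0.76) and miR-500-3p (r = 0.75, rho = 0.66) for miR-29c-5p. No miRNA was among the closest 2 of more than 1 member.

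Library depth moved with several of these values within the ethanol group. The 4 shallowest ethanol libraries, rats 3, 4, 7 and 8 with 1960702 to 2605437 reads, had miR-29a-5p at 4.20 to 7.41 CPM, and the 4 deepest, rats 15, 16, 23 and 24 with 2898038 to 3598773 reads, had it at 8.43 to 10.2 CPM. The same split separated miR-29a-3p, at 2595 to 2875 CPM in the shallow and 3111 to 3618 CPM in the deep libraries. Vehicle rat 10, with 2243412 reads, was as shallow, but had miR-29a-5p at 10.2 CPM and miR-29a-3p at 3085 CPM, near the deep libraries. For miR-29b-5p the order was turned, with a mean of 9.20 CPM in the shallow and 7.25 CPM in the deep libraries, and their ranges overlapped. These rats also differ in their numbers, the shallow ones all having the lower, so depth and rat number cannot be told apart. The labels do not say what the numbers stand for, nor which libraries were sequenced together.

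With log2 of the library total as a covariate, chosen after the data were seen, the log2 difference of miR-29a-5p shrank to -0.17, and that of miR-29b-5p grew to -0.57 (edgeR unadjusted p = 0.00572, adjusted 0.995). With only the 4 deepest ethanol libraries against the 4 vehicle libraries the differences were -0.12 for miR-29a-5p, -0.55 for miR-29b-5p (edgeR unadjusted p = 0.0142) and -0.26 for miR-29b-3p (edgeR unadjusted p = 0.0306), and none passed adjustment (adjusted p = 0.995 for each). In that comparison the difference of the miR-29a ratio was 0.18. Mean miR-29a-5p was 6.12 CPM in the shallow and 9.69 CPM in the deep ethanol libraries, beside 10.4 CPM in vehicle. For miR-29b-3p the means were 72.5 and 67.5 CPM, beside 81.1 CPM, and for miR-29b-5p 9.20 and 7.25 CPM, beside 10.7 CPM. This split was also chosen after the data were seen, and the deep libraries kept had the lower means of miR-29b-3p and miR-29b-5p. Its p-values are therefore no test of ethanol, and what lies behind the split was not tested.

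Markers of cell types were summed in each library beside the members. The neuron markers, with 4 of 4 read in every library, summed to 33082 to 38208 CPM in vehicle and 30039 to 37627 CPM in ethanol rats (exact permutation p = 0.265), so the hippocampal tissue carried its neuronal miRNAs throughout. In the 4 shallow ethanol libraries this sum was 30039 to 34294 CPM and the vascular sum 49995 to 65565 CPM, against 34895 to 37627 CPM and 30812 to 52880 CPM in the 4 deep ones. The vascular sum was 36706 to 46039 CPM in vehicle rats, with 3 of 3 markers read (exact permutation p = 0.394 between the groups). Within the ethanol group both miR-29a arms were therefore lower in the libraries with the lower neuron sums. Over 12 libraries, after group means were taken away, miR-29a-3p had r = 0.82 and rho = 0.81 with the neuron sum, which holds miR-128-3p, and r = -0.82 and rho = -0.77 with the vascular sum. For miR-29c-3p with the neuron sum they were 0.66 and 0.73. These are descriptions of libraries that share 1 scaling, the largest among 6 members and 7 lists.

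Other lists of markers overlapped between the groups. The oligodendrocyte sum was 9332 to 17658 CPM in vehicle and 9827 to 19012 CPM in ethanol rats, and the choroid plexus sum 28978 to 50267 and 16515 to 70880 CPM. The microglia and leukocyte sum was 307 to 369 and 250 to 432 CPM, and the blood sum, from 2 of 3 markers in the table, 118 to 215 and 53.8 to 290 CPM. The muscle sum, with 1 of 4 markers at 0 in at least 1 library, was 126 to 1764 and 112 to 1711 CPM (exact permutation p = 0.0828), high in 3 of 4 vehicle rats and in 1 of 8 ethanol rats. Its r was -0.60 with miR-29b-3p (rho = -0.61) and -0.57 with miR-29c-3p (rho = -0.59), and its part in the ethanol comparison was not tested.

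Another 7 miRNAs known to act on DNA methylation or chromatin enzymes, as miR-29 guides do, were read from the same fit. Of these 7, 0 passed the adjusted threshold, beside 0% of all 420, and 1 had an unadjusted p under 0.05, beside 4.05% of all 420. It was miR-22-3p, known to repress TET enzymes, at 21715 ± 2255 CPM (SD, n = 4) in vehicle and 18154 ± 1665 CPM (n = 8) in ethanol rats, with a log2 difference of -0.26 (SE 0.09, edgeR unadjusted p = 0.0102, adjusted 0.971). The other 6 had log2 differences between -0.12, for miR-132-3p, and 0.17, for miR-101a-3p, which represses the histone methyltransferase EZH2. The miR-148 and miR-152 guides, which repress the maintenance DNA methyltransferase, were at 0.02 for miR-148a-3p, -0.04 for miR-148b-3p and -0.11 for miR-152-3p, and the adjusted p of all 7 lay between 0.971 and 0.997.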

How the data were processed

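Total RNA (1 µg a rat) was made into small RNA libraries, gel-selected at 20 to 30 nt and sequenced in sets of 8. For each rat the authors deposited estimated counts for 753 mature miRNAs, made from small RNA reads and not scaled for depth. The submitters' processing notes name cutadapt, Partek and rn5, with no role or version. The counting method, its use of strand and the miRNA annotation are not given in the sources used here. Between 80.5% and 83.9% of a library's values were whole (tolerance 1e-06), and all were rounded. The 12 libraries differed pairwise by more than counting noise (lowest chi-square per degree of freedom 39.1 over 66 pairs).

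The authors' stated filter on rare miRNAs, fewer than 10 reads in 10 libraries, was applied. The retained 420 held at least 99.987% of counts. Groups came from the treatment label. R 4.3.3 was used with edgeR 4.0.16 (TMM, quasi-likelihood test, no covariate; prior count of 2 for log2 CPM), limma 3.58.1 (trend on the less-read arm, for ratios of hairpins with both arms retained) and DESeq2 1.42.0 (alternative), and Python 3.11.15 with scipy 1.17.1. Correlations used 100000 permutations within groups. Sequences matched 688 of 753 names. The fits were tested on simulated data. Alternatives were other scalings, filters, tests and pseudocounts, each library left out, and 3 chosen after the data were seen.

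Members and lists were chosen with earlier results of these data known. Named miRNAs were the 6 members, seed sharers, the 2 most like each member, and the related list. Markers were named as lists.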

Additional observations from a re-analysis of the deposited data

Results flagged for a closer look

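The log2 ratio of miR-29a-3p to miR-29a-5p in ethanol rat 7 stood apart from the other 7 ethanol rats. Its gap to the next rat was 0.637 of the whole range of the group (0.637371), past the limit of Dixon's test for 8 samples. The ratio was 685 in this rat and 414 in the next, and it rested on 8 reads of miR-29a-5p in the shallowest of the 12 libraries. The test was applied to 10 measures in 2 groups each, 20 groups in all, of which 1 had such a library, and chance gives about 1 in 20.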

How the results depend on the processing

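No paired analysis was possible because no animal number is shared between the groups. No miR-29 arm or ratio reached an adjusted p under 0.05 under any alternative run, and the log2 differences of miR-29b-3p, miR-29a-5p and miR-29b-5p stayed below 0 in all 24 alternatives. Leaving out 1 library gave -0.27 to -0.17, -0.46 to -0.25 and -0.52 to -0.32 for these 3, and the unadjusted call of miR-29b-5p was lost without any 1 of 7 libraries. The smaller differences turned sign. miR-29a-3p went from -0.073 to 0.0087 when 1 library was left out (above 0 without ethanol rat 3 or 8), 0.017 with the library total as covariate and 0.085 with the 4 deepest ethanol libraries. miR-29c-3p went from -0.12 to 0.016 (above 0 without vehicle rat 10) and was 0.0027 with the deepest libraries. miR-29c-5p went from -0.051 to 0.069 (below 0 without vehicle rat 9 or 19 or ethanol rat 24) and was -0.011 with library totals alone. The ratio differences kept their signs, at 0.27 to 0.43 for miR-29a, 0.11 to 0.26 for miR-29b and -0.14 to -0.04 for miR-29c with 1 library left out. A minimum of 10 reads for both arms in every library gave no miR-29a ratio, since miR-29a-5p fell to 8 reads. The correlation of the miR-29a arms was 0.62 to 0.84 with 1 library left out and 0.75 with library totals alone (adjusted permutation p = 0.0427). Over all miRNAs, DESeq2 called 1 after adjustment (miR-133b-3p) and leaving out 1 library 0 to 3, with 3 without ethanol rat 16. Counts at an unadjusted p under 0.05 were 17 in edgeR, 11 by exact permutation, 11 with the covariate, 11 with the deepest libraries and 5 to 28 with 1 library left out, lowest without vehicle rat 20 and highest without ethanol rat 24. For ratios these were 2, 1 without the trend, 1 with the deepest libraries and 1 to 9 with 1 library left out, highest without vehicle rat 10. The causes were not tested. Depth limits miR-29a-5p and miR-29b-5p most, since at 8 to 62 reads a library counting error is large beside their spread.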
